A study of Glycine max with 2 samples.

Results

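LEAFY COTYLEDON1 (LEC1) and ABSCISIC ACID INSENSITIVE3 (ABI3) were followed as 4 genes of the 56044 listed for soybean (Glycine max) nuclei. They were taken by identifier: LEC1-A is Glyma.07G268100, LEC1-B is Glyma.17G005600, and the ABI3 copies Glyma.08G357600 and Glyma.18G176100 are called ABI3a and ABI3b here. Their identifiers place them on chromosomes 7, 17, 8 and 18. The names rest on the study's own annotation by sequence match, and the rule used no measured value.

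The nuclei came from pooled cotyledon-stage seeds of cultivar Williams 82, grown in a greenhouse without any treatment, and gave 1 RNA library. There was no genotype or treatment contrast, so the comparisons were between the embryo, the endosperm and the maternal seed coat. Nuclei were clustered and each cluster was matched to a numbered cluster of the study: sn2, sn15 and sn18 were embryo (1049 nuclei), sn10, sn11 and sn12 endosperm (1033 nuclei), and 16 clusters seed coat (6077 nuclei). A further cluster of 477 nuclei, sn8, belonged to no single region and was kept apart.

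LEC1 is the NF-YB subunit of a trimeric CCAAT-binding factor and is known from Arabidopsis as a regulator of embryo identity, morphogenesis and the start of seed maturation. ABI3 is a B3-domain transcription factor that mediates responses to abscisic acid and activates genes for storage proteins, oil bodies and desiccation tolerance. In Arabidopsis both belong, with FUS3 and LEC2, to a network of regulators that activate one another and that B3 repressors of the VAL type silence after germination.

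The library held 39881831 unique molecular identifiers (UMIs, counted RNA molecules) in 8636 nuclei. The median depth was 2782 UMIs in embryo nuclei, 5779 in endosperm nuclei and 2805 in seed coat nuclei, but only 1156 in sn8. The embryo label was checked with 6 embryo marker genes, including the YABBY gene YAB1, and all 6 were detected in at least 10% of nuclei and enriched at least 2 times in each of sn2, sn15 and sn18. Their summed level was 2040 UMIs per 1000000 UMIs (CPM) in embryo nuclei, against 100 in endosperm nuclei and 58.0 in seed coat nuclei. Of 8 endosperm markers, 6 met the same rule over all endosperm nuclei. With 1 library there were no replicates and no test, so all intervals are 95% intervals of counting error only: exact Poisson for levels, conditional exact for ratios, and Clopper-Pearson for shares.

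All 4 genes were highest in embryo nuclei, intermediate in endosperm nuclei and lowest in seed coat nuclei. Levels are in CPM, from the summed UMIs of each group. LEC1-A stood at 44.8 (38.5 to 51.8) in embryo, 19 (16.0 to 22.4) in endosperm and 5.92 (5.05 to 6.90) in seed coat nuclei. LEC1-B stood at 137 (126 to 149) in embryo, 20.2 (17.1 to 23.7) in endosperm and 7.51 (6.53 to 8.61) in seed coat nuclei. For each of the LEC1 copies the 3 intervals were apart from one another.

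ABI3a measured 157 (145 to 170) in embryo, 59.1 (53.7 to 64.8) in endosperm and 12.3 (11 to 13.7) in seed coat nuclei. ABI3b measured 251 (236 to 267) in embryo, 115 (108 to 123) in endosperm and 16.1 (14.7 to 17.7) in seed coat nuclei. These intervals were apart from one another too. A lower level in a group can reflect fewer expressing nuclei or less RNA in each of them, and gene lengths were not taken into account, so levels were compared between groups and not between genes.

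**Figure D1:**
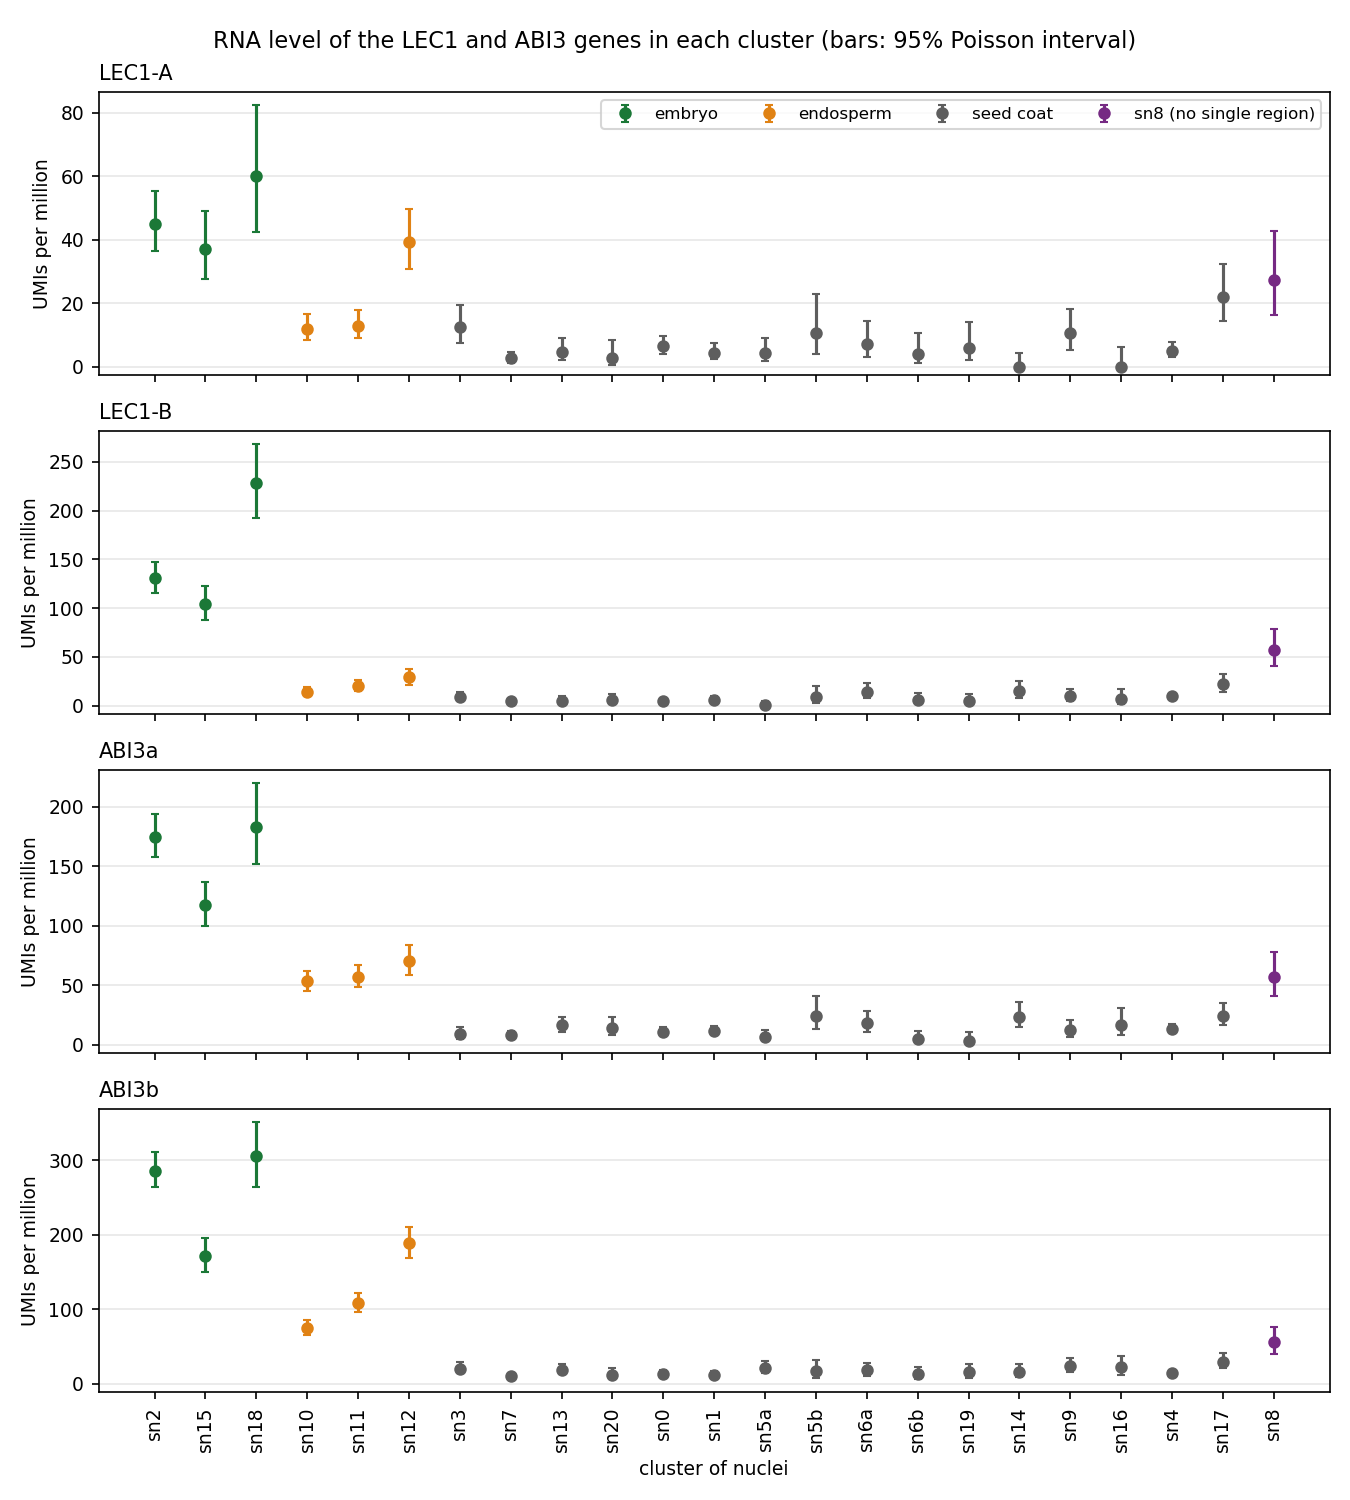
RNA level of each gene (CPM, linear axes that differ between panels) in the 23 clusters of nuclei; points are cluster sums and bars are 95% Poisson intervals. Embryo clusters stand above all seed coat clusters for each gene, and for LEC1-A the endosperm cluster sn12 (39.4) lies within the range of the embryo clusters (37.2 to 60.1).

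LEC1-B showed the steepest contrast. Its level in embryo nuclei was 13.4 times (11.7 to 15.4) that in endosperm and seed coat nuclei together, whereas the ratio was 5.15 (4.26 to 6.21) for LEC1-A, 7.07 (6.36 to 7.86) for ABI3a and 6.75 (6.21 to 7.33) for ABI3b. All 4 genes thus passed a 2-fold and a 4-fold limit. Of 37125 genes with at least 20 UMIs, 11.9% passed the 2-fold limit and 3.78% the 4-fold limit. Ranked by this ratio among those genes, LEC1-B was at place 264, ABI3a at 648, ABI3b at 682 and LEC1-A at 1010.

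The endosperm separated LEC1-B from the other members. LEC1-A, ABI3a and ABI3b reached 42.4%, 37.6% and 45.9% of their embryo level in endosperm nuclei, and LEC1-B 14.7%. The embryo-to-endosperm ratio was 6.79 (5.66 to 8.19) for LEC1-B, against 2.36 (1.88 to 2.96) for LEC1-A, 2.66 (2.35 to 3.01) for ABI3a and 2.18 (1.99 to 2.39) for ABI3b. The 6 embryo markers together had 4.93% of their embryo level in endosperm nuclei. In the 751 endosperm nuclei without a UMI of any embryo marker, LEC1-A measured 18.2, LEC1-B 17.6, ABI3a 57.1 and ABI3b 110, each within the interval for all endosperm nuclei. Summed embryo markers measured 153 CPM in endosperm nuclei with 2 or more members, 63.3 with 1 and 82.3 with none. A marker UMI was held by 33.2% (27.8 to 39.0), 25.1% (21.0 to 29.7) and 24.9% (20.5 to 29.8) of them in the same order. Their median depths were 6923, 5681.5 and 5060 UMIs. The part of embryo RNA in the endosperm values was not tested.

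Relative to seed coat nuclei, endosperm nuclei were higher for each gene: 3.20 times (2.54 to 4.03) for LEC1-A, 2.69 times (2.16 to 3.33) for LEC1-B, 4.81 times (4.17 to 5.56) for ABI3a and 7.15 times (6.37 to 8.03) for ABI3b. All 4 members were thus at least 2 times higher than in seed coat in both the embryo and the endosperm, a pattern of 7.51% of the 37125 genes. The endosperm contrast alone was met by 17.4% of these genes.

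Detection in single nuclei depended on depth, and the embryo and endosperm shares lay closer together than the levels. LEC1-A had at least 1 UMI in 13.5% (11.5 to 15.8) of embryo, 11.4% (9.55 to 13.5) of endosperm and 2.5% (2.12 to 2.93) of seed coat nuclei. LEC1-B was detected in 29.6% (26.9 to 32.5) of embryo, 10.9% (9.10 to 13) of endosperm and 3.03% (2.61 to 3.49) of seed coat nuclei. The embryo share of LEC1-A thus lay close to its endosperm share with overlapping intervals, while that of LEC1-B was well above. With nuclei counted whose stored LEC1-A entry was 0, the LEC1-A shares were nearly equal, at 14.8% of embryo and 15.3% of endosperm nuclei, with no intervals computed.

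ABI3a was detected in 37.1% (34.2 to 40.1) of embryo, 29.4% (26.7 to 32.3) of endosperm and 4.56% (4.05 to 5.11) of seed coat nuclei. ABI3b was detected in 50.1% (47.1 to 53.2) of embryo, 47.9% (44.8 to 51.0) of endosperm and 5.58% (5.01 to 6.19) of seed coat nuclei. The embryo and endosperm shares of ABI3b overlapped in their intervals, at median depths of 2782 UMIs in embryo and 5779 UMIs in endosperm nuclei.

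When each nucleus was thinned to 500 UMIs, which left out 27 nuclei in all, 1 of them embryo and 8 seed coat, the share with ABI3b was 11.1% (9.23 to 13.1) in embryo, 6.49% (5.06 to 8.16) in endosperm and 0.906% (0.683 to 1.18) in seed coat nuclei. Thinned shares of ABI3a were 5.63% in embryo, 3.10% in endosperm and 0.709% in seed coat nuclei. Thinned shares of LEC1-B were 5.73%, 1.16% and 0.560% in the same order, and those of LEC1-A 2.48%, 1.94% and 0.478%. For LEC1-A the embryo interval (1.63 to 3.61) and the endosperm interval (1.19 to 2.97) overlapped at equal depth.

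**Figure D2:**
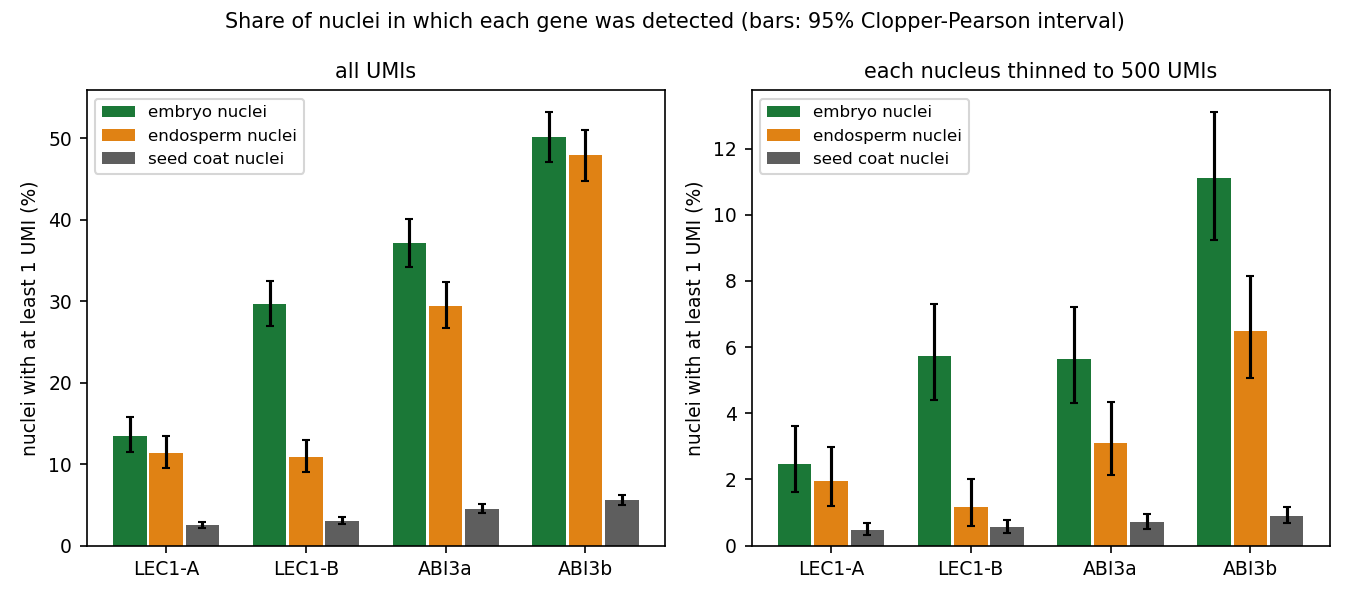
Share of nuclei (%) with at least 1 UMI of each gene, with all UMIs (left) and after thinning each nucleus to 500 UMIs (right); bars are embryo, endosperm and seed coat nuclei and error bars 95% Clopper-Pearson intervals. ABI3b has nearly equal embryo and endosperm bars with all UMIs (50.1% and 47.9%) and unequal ones at equal depth (11.1% and 6.49%).

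Most nuclei with a member held a single UMI of it. Among embryo nuclei, LEC1-A had 1 UMI in 118, 2 UMIs in 15 and 3 or more in 9 nuclei. LEC1-B had 1 UMI in 193, 2 UMIs in 63 and 3 or more in 55 embryo nuclei, with up to 12 in a nucleus. ABI3a reached 3 or more UMIs in 53 embryo nuclei and ABI3b in 112. In the far larger number of seed coat nuclei, 3 or more UMIs were found in 1 nucleus for LEC1-A, 2 for LEC1-B, 12 for ABI3a and 20 for ABI3b. At these counts, a nucleus without a UMI is not a nucleus without the RNA.

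The background correction also treated the regions differently. A share of the entries stored for each gene was equal to 0, taken here as entries that the correction emptied. In embryo nuclei these were 8.39% of the LEC1-A entries, 9.86% for LEC1-B, 4.42% for ABI3a and 2.23% for ABI3b. In endosperm nuclei they were 25.3%, 37.2%, 10.6% and 4.26% in the same gene order, and in seed coat nuclei 55.7%, 58.2%, 39.9% and 27.3%. The emptied share was thus highest where the genes were lowest, and the seed coat levels are what remained after it.

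Within the embryo, sn18 was highest for LEC1-B. The study placed sn2 and sn15 in the embryo proper and sn18 in the embryo epidermis. LEC1-B measured 228 (192 to 268) in sn18, 131 (116 to 147) in sn2 and 104 (87.6 to 123) in sn15. Its level in sn18 was 1.74 times (1.41 to 2.14) that in sn2. The corresponding ratio of sn18 to sn2 was 1.33 (0.889 to 1.97) for LEC1-A, 1.05 (0.841 to 1.29) for ABI3a and 1.07 (0.900 to 1.26) for ABI3b, and these intervals include 1.

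Among the embryo clusters, sn15 was lowest for each gene. ABI3a measured 175 (158 to 194) in sn2, 118 (99.9 to 137) in sn15 and 183 (152 to 220) in sn18. ABI3b measured 286 (264 to 311) in sn2, 172 (150 to 195) in sn15 and 305 (264 to 351) in sn18. The sn2 level exceeded the sn15 level 1.49 times (1.23 to 1.81) for ABI3a and 1.67 times (1.43 to 1.95) for ABI3b. For LEC1-A the sn2 level was 1.21 times (0.849 to 1.74) that of sn15, a difference within counting error, and for LEC1-B 1.26 times (1.02 to 1.55). The sn18 level exceeded the sn15 level for each gene, by 1.61 times (1.03 to 2.51) for LEC1-A, 2.19 (1.72 to 2.78) for LEC1-B, 1.56 (1.22 to 2.00) for ABI3a and 1.78 (1.46 to 2.16) for ABI3b.

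Within the endosperm, sn12 stood apart for LEC1-A and ABI3b. The study assigned sn10 to aleurone and sn11 to the peripheral and embryo-surrounding endosperm. LEC1-A measured 39.4 (30.8 to 49.6) in sn12, 12.9 (8.98 to 17.9) in sn11 and 11.9 (8.30 to 16.6) in sn10. Its sn12 level was 3.06 times (2.01 to 4.72) that of sn11, and the ratio of sn2 in the embryo to sn12 was 1.14 (0.831 to 1.58). The LEC1-A level of these endosperm nuclei was thus not distinguishable from that of the largest embryo cluster at this depth. Of the stored LEC1-A entries, 9.52% were 0 in sn12, 31.9% in sn11 and 39.6% in sn10. Nuclei with any stored LEC1-A entry made up 18.8%, 13.4% and 13.8% in the same order. The part of the background correction in these differences was not tested.

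ABI3b measured 189 (169 to 210) in sn12, 109 (96.9 to 122) in sn11 and 75.2 (65.6 to 85.8) in sn10, with each step beyond counting error. In sn12 it was detected in 56.7% (51.2 to 62.1) of 335 nuclei, at a median depth of 4660 UMIs. LEC1-B and ABI3a were highest in sn12 as well. LEC1-B measured 29.0 (21.7 to 37.9) in sn12, 20.6 (15.6 to 26.8) in sn11 and 14.3 (10.3 to 19.3) in sn10. ABI3a measured 70.5 (58.9 to 83.8) in sn12, 57.4 (48.8 to 67.2) in sn11 and 53.4 (45.4 to 62.5) in sn10. The ratio of sn12 to sn10 was 3.31 (2.18 to 5.10) for LEC1-A, 2.03 (1.33 to 3.12) for LEC1-B, 1.32 (1.04 to 1.68) for ABI3a and 2.51 (2.11 to 2.98) for ABI3b, whereas sn12 and sn11 differed within counting error for LEC1-B and ABI3a.

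In sn12, the summed embryo markers stood at 3.32% of their embryo level. The members stood there at 87.9% for LEC1-A, 75.2% for ABI3b, 44.9% for ABI3a and 21.1% for LEC1-B. In sn11, where the embryo markers were higher at 7.46%, LEC1-A was at 28.8% and ABI3b at 43.4% of the embryo level. The part of embryo RNA in the sn12 and sn11 values was not tested.

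In the seed coat, levels were low and mostly not separable. Across 16 clusters, LEC1-A ran between 0 and 22.1, LEC1-B between 1.24 and 22.1, ABI3a between 3.61 and 24.6, and ABI3b between 11.1 and 29.7 CPM. LEC1-A had no UMI in sn14 (inner seed coat layers) or sn16 (hilum), where a floor of 3 UMIs for a count of 0 corresponds to 3.39 and 5.11 CPM and the upper bounds of the 95% Poisson interval were 4.17 and 6.29 CPM. The highest seed coat cluster was sn17 for each gene, although for ABI3a its neighbour sn5b had nearly the same level (24.5). Cluster sn17 mapped to several seed coat subregions in the study.

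In sn17, LEC1-A was 4.24 times (2.68 to 6.48) and LEC1-B 3.22 times (2.05 to 4.87) its level in the other seed coat nuclei. The ratios were 2.10 (1.38 to 3.08) for ABI3a and 1.92 (1.32 to 2.71) for ABI3b. The embryo markers were also highest in sn17 among seed coat clusters, with a summed 148 CPM, or 7.25% of the embryo level, and the part of embryo RNA in the sn17 values was not tested. Without sn17, seed coat nuclei measured 5.21 for LEC1-A, 6.87 for LEC1-B, 11.7 for ABI3a and 15.5 for ABI3b.

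Embryo markers moved with the members across seed coat nuclei as well. Among the 103 seed coat nuclei with UMIs of 2 or more members, 52.4% (42.4 to 62.4) held a UMI of an embryo marker, against 14.4% (13.4 to 15.3) of the 5245 nuclei with no member. Their summed embryo marker level was 304 against 44.2 CPM, their median depth 6720 against 2699 UMIs, and 15.5% against 4.61% of them were among the 518 nuclei with the highest doublet scores. No seed coat nucleus held all 4 members. In the 5115 seed coat nuclei without an embryo marker UMI, LEC1-A measured 4.87, LEC1-B 6.57, ABI3a 10.1 and ABI3b 12.5 CPM. The parts of embryo RNA, doublets and depth in these values were not tested.

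Cluster sn8 had levels between those of embryo and seed coat nuclei: 27.3 (16.4 to 42.6) for LEC1-A, 57.4 (41.0 to 78.2) for LEC1-B, 57.4 for ABI3a and 56.0 (39.8 to 76.6) for ABI3b. These rest on 19, 40, 40 and 39 UMIs. The embryo markers summed to 485 CPM in sn8, or 23.8% of their embryo level, and 2 of the 6 met the marker rule there. The 8 seed coat outer integument markers summed to 5951 CPM in sn8, and 1 of the 8 met the rule. They summed to 4074 CPM in seed coat and 680 CPM in embryo nuclei. The part of embryo RNA in the sn8 values was not tested.

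In the order of all 23 clusters, LEC1-A had no neighbouring pair that differed beyond counting error. LEC1-B declined beyond counting error at each of the first steps, through sn18, sn2, sn15, sn8 and sn12, after which no neighbours were separable. ABI3a was level between sn18 and sn2, lower in sn15, lower again in sn12, sn8, sn11 and sn10, which did not differ as neighbours, and lower in sn17 and all clusters after it. ABI3b was level between sn18 and sn2, then between sn12 and sn15, lower in sn11, lower again in sn10 and sn8, and lowest from sn17 onwards.

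The copies of each gene were not used in the same proportion everywhere. Reads that fit both copies could have been assigned to either or dropped by the counting, so the split is uncertain in itself and was compared between groups only. Of the 731 LEC1 UMIs in embryo nuclei, 75.4% (72.1 to 78.5) came from LEC1-B. This share was 51.5% (45.7 to 57.4) of 293 UMIs in endosperm nuclei and 55.9% (50.7 to 61.0) of 372 UMIs in seed coat nuclei. It was alike within the embryo, at 74.4% in sn2, 73.7% in sn15 and 79.1% in sn18.

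Among the embryo and endosperm clusters, the lowest LEC1-B share was in sn12, at 42.4% (33.6 to 51.6) of 125 UMIs. The odds of a LEC1 UMI coming from LEC1-B in sn12 were 0.241 times (0.159 to 0.363) those in the embryo. Shares in sn10 (54.5%) and sn11 (61.5%) were also below the embryo share, with odds ratios of 0.393 (0.237 to 0.654) and 0.523 (0.325 to 0.851). The difference between sn12 and sn11 had an odds ratio of 0.462 (0.255 to 0.828), and that between sn12 and sn10 one of 0.615 (0.333 to 1.13), whose interval includes 1. In sn12, 33.3% of the LEC1-B entries and 9.52% of the LEC1-A entries were stored as 0. These were 36.5% and 31.9% in sn11, and 42.1% and 39.6% in sn10. The part of the background correction in the copy shares was not tested.

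The ABI3 pair showed a smaller difference. ABI3b made up 61.5% (59.1 to 63.8) of 1641 ABI3 UMIs in embryo nuclei, 66.1% (63.5 to 68.7) of 1304 in endosperm nuclei and 56.7% (53.2 to 60.2) of 786 in seed coat nuclei. In sn12 its share was 72.8% (68.5 to 76.7), with odds 1.67 times (1.33 to 2.12) those in the embryo and 1.90 times (1.41 to 2.56) those in sn10. The shares in sn10 (58.5%) and sn11 (65.5%) had odds ratios to the embryo with intervals that include 1.

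**Figure D3:**
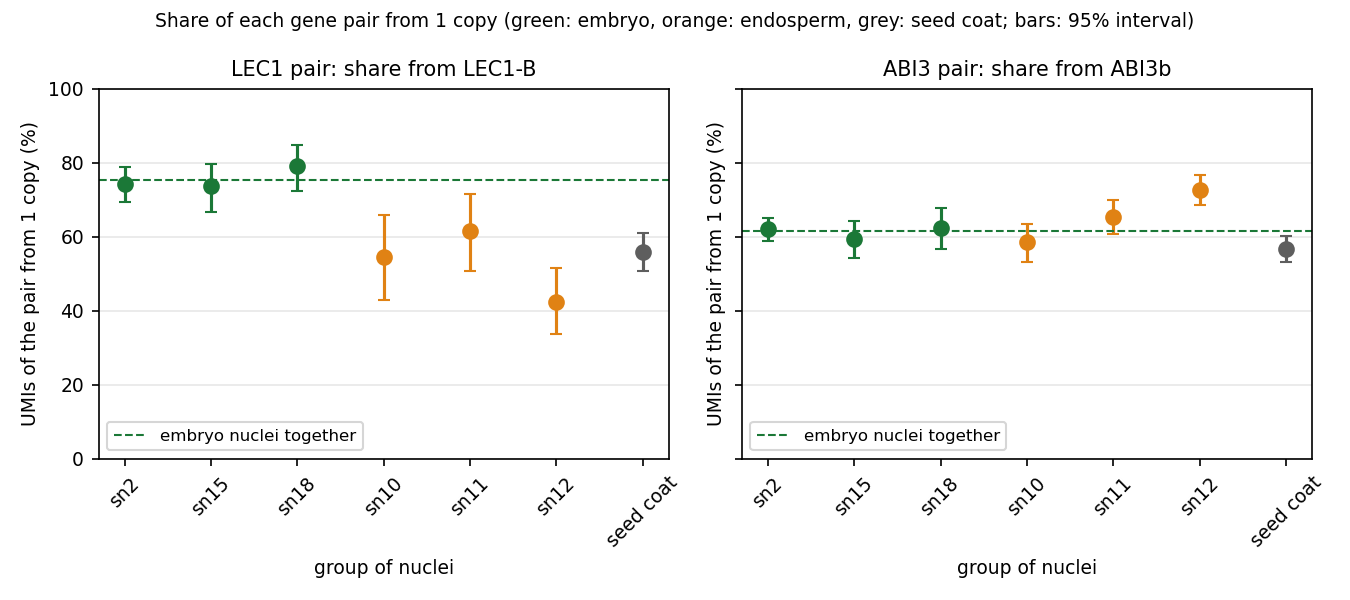
Share (%) of the UMIs of each gene pair that came from LEC1-B (left) or ABI3b (right) in the embryo clusters, the endosperm clusters and all seed coat nuclei; points are shares, bars 95% Clopper-Pearson intervals, and the dashed line is the share in all embryo nuclei. In sn12 the LEC1-B share is lowest (42.4%) and the ABI3b share highest (72.8%) of the groups drawn.

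LEC1 and ABI3 RNAs were found in the same embryo nuclei. A UMI of either LEC1 copy was found in 385 embryo nuclei (36.7%), and a UMI of either ABI3 copy in 678 (64.6%). ABI3 was detected in 75.6% (71.0 to 79.8) of embryo nuclei with LEC1 and in 58.3% (54.4 to 62.1) of the 664 without. The nuclei with LEC1 were deeper, with a median of 3478 against 2517 UMIs. After thinning to 500 UMIs, the shares were 29.6% (20.0 to 40.8) of 81 nuclei with LEC1 and 15.0% (12.8 to 17.4) of 967 without, with intervals apart from each other.

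By cluster, ABI3 was found in 77.2% of sn2 nuclei with LEC1 and 64.7% of those without, in 71.4% and 40.1% in sn15, and in 75.6% and 57.1% in sn18. After thinning, these shares were 31.2% (18.7 to 46.3) and 16.8% (13.8 to 20.1) in sn2, 25.0% (5.49 to 57.2) and 8.41% (5.06 to 13) in sn15, and 28.6% (11.3 to 52.2) and 17.2% (11.8 to 23.7) in sn18, so the intervals overlapped within each cluster at equal depth. In endosperm nuclei the shares were 69.8% (63.1 to 75.9) with LEC1 and 58.0% (54.5 to 61.4) without. After thinning, only 31 endosperm nuclei kept a LEC1 UMI and 1 of these had ABI3 (3.23%, 0.0816 to 16.7), against 9.48% (7.74 to 11.5) of those without, so no difference was detectable at equal depth in the endosperm. Embryo nuclei with none of the 4 genes numbered 277 (26.4%) and those with all 4 numbered 30 (2.86%), against 33.4% and 0.290% of endosperm nuclei.

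**Figure D4:**
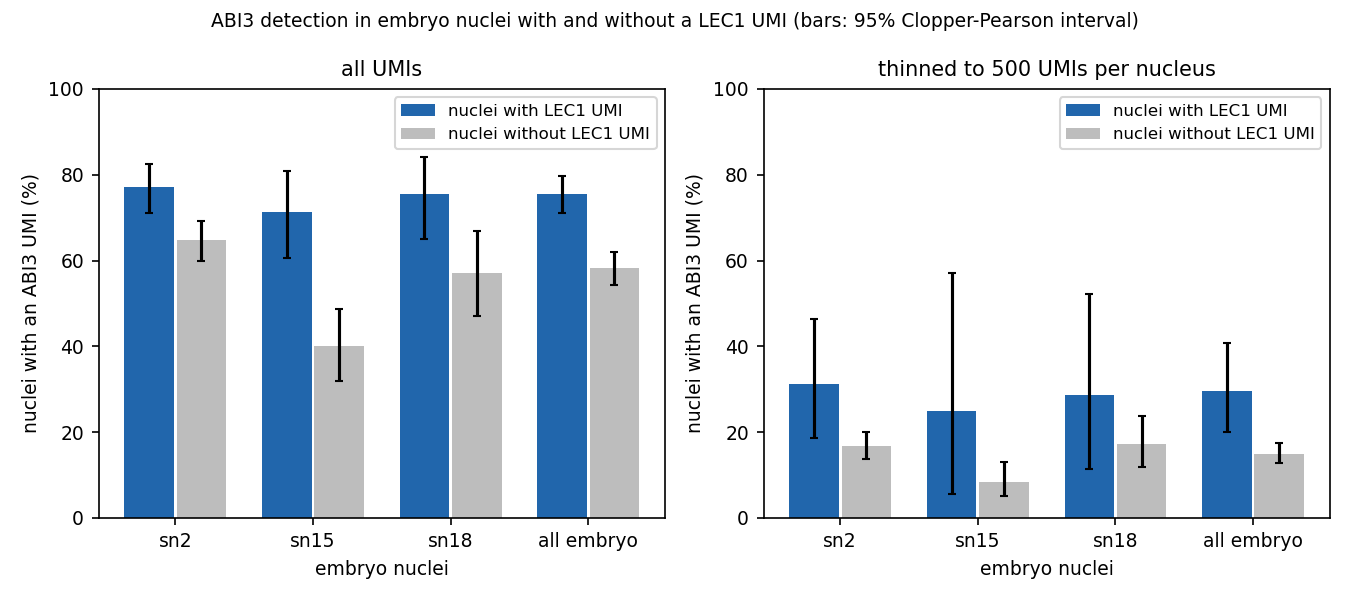
Share (%) of embryo nuclei with an ABI3 UMI among nuclei with and without a LEC1 UMI, by embryo cluster and for all embryo nuclei, with all UMIs (left) and after thinning to 500 UMIs (right); error bars are 95% Clopper-Pearson intervals. For all embryo nuclei the shares are 75.6% with and 58.3% without LEC1, and 29.6% with and 15.0% without after thinning.

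Some groups of maturation RNAs were higher in embryo nuclei where a member was detected, and others were not. Kunitz trypsin inhibitor RNAs, for seed proteins that accumulate during maturation, measured 230 CPM in embryo nuclei with ABI3 and 86.6 in those without, a ratio of 2.66 (2.14 to 3.33). With and without LEC1 they measured 261 and 132, a ratio of 1.98 (1.71 to 2.30). Within sn2 alone the ratios were 2.09 (1.59 to 2.78) for ABI3 and 1.76 (1.47 to 2.11) for LEC1. In endosperm nuclei, where these inhibitor RNAs summed to 7.08, the ratios were 0.867 (0.478 to 1.63) for ABI3 and 0.703 (0.302 to 1.46) for LEC1. In all embryo nuclei, Glyma.08G341500 alone gave 161 of their 191 CPM.

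The gibberellin synthesis list shares the gene CPS with the embryo markers, and Glyma.09G029400 alone gave 882 of its 1161 CPM in embryo nuclei. These RNAs were likewise higher in embryo nuclei with ABI3, at 1284 against 835 CPM (ratio 1.54, 1.43 to 1.66). Within sn2 they measured 1471 against 1186 (ratio 1.24, 1.13 to 1.36). In endosperm nuclei they were higher with LEC1, at 113 against 56.9 (ratio 1.99, 1.66 to 2.38), and with ABI3, at 75.0 against 57.6 (ratio 1.30, 1.07 to 1.6). Oleosin RNAs, for coat proteins of oil bodies, measured 111 with and 73.4 without LEC1 in all embryo nuclei (ratio 1.51, 1.22 to 1.87), but 86.1 and 76.2 within sn2 (ratio 1.13, 0.818 to 1.55). Some other ratios within sn2 had intervals that include 1. The 24 regulators had 1.03 (0.945 to 1.12) for LEC1 and 0.963 (0.873 to 1.06) for ABI3. In all embryo nuclei, though, the regulators had 1.21 (1.14 to 1.29) for LEC1 and 1.32 (1.23 to 1.42) for ABI3. With ABI3 within sn2, the oleosins had 0.885 (0.617 to 1.29), the late embryogenesis abundant group 0.839 (0.628 to 1.13) and FAD2 0.590 (0.284 to 1.29). In all embryo nuclei these ratios were 1.40 (1.08 to 1.82), 1.16 (0.916 to 1.48) and 1.13 (0.616 to 2.18) in the same order. With LEC1, however, the late embryogenesis abundant group within sn2 had 1.43 (1.11 to 1.85) and gibberellin synthesis 1.11 (1.03 to 1.20). FAD2 with LEC1 had 2.56 (1.45 to 4.66) in all embryo nuclei and 1.76 (0.866 to 3.63) within sn2. Storage protein RNAs had ratios of 0.790 (0.392 to 1.55) for LEC1 and 2.13 (0.883 to 6.20) for ABI3 in all embryo nuclei. For ABI3 within sn2 their ratio was 6.78 (1.10 to 279), on 23 UMIs with ABI3 and 1 UMI without. The embryo markers themselves measured 2483 CPM in embryo nuclei with 2 or more members and 1007 in those with none, at median depths of 3717 and 2266 UMIs. The part of nuclei with less embryo RNA in these differences was not tested.

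Other regulators of the embryo and maturation programs were mostly higher in the embryo as well. Of 24 listed genes, 22 had at least 20 UMIs, and 17 of these (77.3%, against 11.9% of all genes) were at least 2 times higher in embryo nuclei than in endosperm and seed coat nuclei together, while none was 2 times lower (20.9% of all genes). Their median log2 ratio, on the log2(CPM + 1) scale, was 1.48, against -0.07 for all genes. In 9 of the 22 the highest level was in sn18, in 5 in sn2 and in 4 in sn12, the clusters with the highest level of 6.03%, 6.23% and 7.74% of all genes.

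The genes for ABI4, WRI1 and BABY BOOM were far higher in the embryo. ABI4, an ERF factor of the abscisic acid response, measured 64.9 in embryo and 2.96 in the other nuclei for Glyma.14G057900, and 47.0 and 3.27 for Glyma.02G264700. WRI1 (WRINKLED1), an AP2 factor that activates fatty acid synthesis, measured 72.2 and 5.32 for Glyma.08G227700 and 74.1 and 9.87 for Glyma.15G221600. BABY BOOM (Glyma.18G244600), an AP2 factor of embryo development, measured 12.9 and 0.569 on 72 UMIs.

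Other genes shared the endosperm part of the pattern. FUS3, the B3 factor that acts with LEC1 and ABI3, was split by copy: Glyma.16G050300 measured 46.3 in embryo, 22.9 in endosperm and 2.31 in seed coat nuclei, whereas Glyma.19G100900 measured 36.1 in embryo, 60.1 in endosperm and 4.12 in seed coat nuclei and was highest in sn12, at 112. The MADS gene AGL15 (Glyma.04G142500) and the B3 repressor gene VAL2 (Glyma.01G133000) also had their highest level in sn12, at 77.1 and 41.0. The other AGL15 copy, Glyma.U018000, measured 67.4 in embryo and 36.2 in endosperm nuclei and was highest in sn2, at 82.7. In all, 11 of the 22 regulators (50%, against 7.51% of all genes) were at least 2 times above seed coat in both embryo and endosperm, as the 4 members were.

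Genes for subunits that can form a trimer with LEC1 differed among themselves. Of 7 NF-YA genes, 5 passed the 2-fold limit, against 11.9% of all genes. The lowest of the 5, Glyma.13G107900 (NF-YA3), had a ratio of 2.12 (1.57 to 2.84). Glyma.07G036200 (NF-YA3) measured 92.1 in embryo and 17.3 in the other nuclei, and Glyma.17G051400 (NF-YA8) 21.4 and 1.42. Both NF-YA9 genes stayed under the 2-fold limit, with ratios of 1.78 (1.42 to 2.21) and 1.22 (0.981 to 1.5), and so did the NF-YC2 gene, at 1.92 (1.69 to 2.19). The listed LEC1-like gene (L1L, Glyma.03G080700) had 9 UMIs in the library and the ABI5 gene Glyma.13G153200 had 7, too few for the comparison. The other ABI5 gene, with 31 UMIs, measured 0.498 in embryo and 0.825 in the other nuclei.

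**Figure D5:**
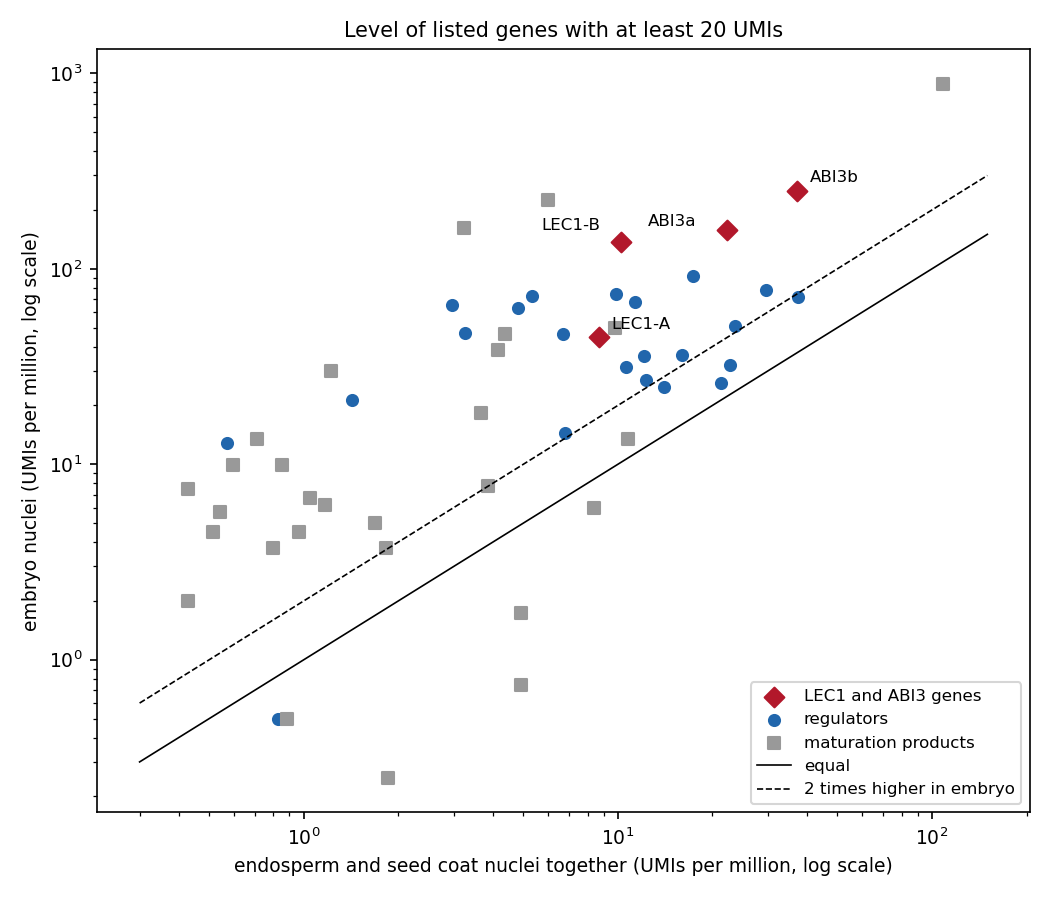
Level of the listed genes with at least 20 UMIs in embryo nuclei (vertical) against endosperm and seed coat nuclei together (horizontal), in CPM on log axes; red diamonds are the LEC1 and ABI3 genes, blue circles the other regulators and grey squares maturation products. The 4 members lie above the dashed line of 2 times higher in embryo, with 17 of 22 regulators and 21 of 28 products on or above it.

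Groups of maturation products differed widely in level. Of 41 listed genes, 28 had at least 20 UMIs, and 21 of these (75.0%, against 11.9% of all genes) were at least 2 times higher in embryo nuclei and 3 at least 2 times lower (20.9% of all genes), with a median log2 ratio of 1.88. The 21 include 4 gibberellin synthesis genes, among them CPS, which is also an embryo marker, so its call repeats the marker check. The 6 gibberellin synthesis genes summed to 1161 CPM in embryo nuclei, 69.6 in endosperm and 133 in seed coat nuclei, and the Kunitz inhibitor genes to 191, 7.08 and 3.76. Most of each sum came from a single gene. Glyma.09G029400 alone made up 882, 54.1 and 123 of the gibberellin synthesis sums, and Glyma.08G341500 161, 5.08 and 2.75 of the Kunitz sums. The 8 storage protein genes summed to 9.95 (7.11 to 13.6) CPM in embryo nuclei, 6.68 in endosperm and 2.31 in seed coat nuclei, and the 10 oleosin genes to 90.6, 49.6 and 17.4. The oleosin sum was 256 (218 to 299) in sn18 and 80.3 (68.5 to 93.6) in sn2, but Glyma.19G063400 alone made up 177 and 34.8 of these, and the other 9 oleosin genes summed to 79.0 (58.7 to 104) in sn18 and 45.5 (36.8 to 55.8) in sn2. The 11 genes for late embryogenesis abundant and related maturation proteins summed to 96.5 (87.2 to 107) in embryo and 112 (105 to 120) in endosperm nuclei, against 12 in seed coat nuclei. These genes were split. Of the 10 with at least 20 UMIs, 6 (60.0%, against 11.9%) were at least 2 times higher in embryo nuclei and 1 at least 2 times lower. The endosperm sum came mostly from Glyma.13G363300 (35.9), Glyma.04G009900 (34.5) and Glyma.13G237700 (17.6).

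The study placed all 4 genes in EMB1, a coexpression module built from microdissected seed regions and not from these nuclei. Its EMB modules were those with RNAs mainly in the embryo, so EMB1 was already an embryo list in that other material. Of its other 544 genes, 539 had at least 20 UMIs, and 233 of these (43.2%, against 11.9% of all genes) were at least 2 times higher in embryo nuclei while 2 were at least 2 times lower (20.9% of all genes). The median log2 ratio of the module was 0.74. In endosperm, 169 of the 539 (31.4%, against 7.51%) were, with the embryo, at least 2 times above seed coat.

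Genes with the most similar profile over the 23 clusters were sought among 33081 genes with at least 50 UMIs, by Pearson correlation of log2(CPM + 1). Glyma.01G022500, matched to the AINTEGUMENTA-like gene AIL6, was the gene nearest to LEC1-B (r = 0.885) and among the 5 nearest to ABI3a (0.904). The WRI1 gene Glyma.15G221600 was among the 5 nearest to LEC1-B (0.884) and to ABI3b (0.925). Glyma.11G164500, matched to an acyl-carrier-protein malonyltransferase of fatty acid synthesis, was among the 5 nearest to LEC1-B (0.879) and ABI3a (0.900). Glyma.17G137800, matched to the beta vacuolar processing enzyme, was among those of ABI3b (0.920). With Spearman correlation, 0 of the 5 nearest genes of LEC1-B and of ABI3b and 3 of those of ABI3a were kept.

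LEC1-A had a looser neighbourhood of its own, with correlations between 0.812 and 0.849 for its 5 nearest genes, of which 3 were kept with Spearman correlation, and none shared with the other members. The nearest were Glyma.05G221600 (0.849) and Glyma.11G154200 (0.830), matched to the UMP synthase of pyrimidine synthesis. Among the members, r was 0.914 between the ABI3 copies, 0.912 between LEC1-B and ABI3a, 0.863 between LEC1-B and ABI3b, and 0.738 between the LEC1 copies. LEC1-A was nearest to ABI3b (0.780). Over the 17 clusters outside embryo and endosperm these values were lower, at 0.623 between the ABI3 copies, 0.787 between LEC1-B and ABI3a, 0.659 between LEC1-B and ABI3b, 0.424 between the LEC1 copies and 0.527 between LEC1-A and ABI3b. These are descriptions over clusters that share 1 library, with few UMIs per cluster for LEC1-A.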

How the data were processed

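Nuclei of pooled seeds were profiled by 10x Multiome, as 1 RNA and 1 ATAC library from the same nuclei. Per the labels, the submitters' notes name bcl2fastq 2.20.0.422, Cell Ranger ARC 1.0 and Seurat 4.1.1. The reads were aligned to soybean assembly Wm82.a2.v1, and ambient RNA was subtracted with SoupX. The deposited table gives the authors' corrected UMI count for every gene in every nucleus, not normalized (39881831 UMIs in 8636 nuclei; 18.2% of 30571536 stored entries equal 0). The counting of reads that fit both copies of a pair is not given in the sources used.

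Counts were clustered in Seurat 5.3.0 (R 4.3.3) with sctransform 0.4.2, 30 principal components and Louvain resolution 1. Of 21 clusters, 2 were divided in 2, and the resulting 23 were matched to the study's numbers by correlation with its cluster averages (lowest 0.98, next best at most 0.8), so single nuclei can differ from the study's clusters. Scrublet (scanpy 1.11.5) marked 0 nuclei as doublets automatically. None were removed, and the 6% with the highest scores (518 nuclei) were left out as an alternative. Levels are summed UMIs per 1000000 UMIs, and 95% intervals came from scipy 1.17.1. Calls (2-fold, at least 20 UMIs) were checked on simulated counts. The members, gene lists and rules were chosen with earlier results of these data known. The text names the members, listed genes and some of the 5 genes most correlated with each member. Chromatin at the 4 genes was not analysed here, because gene coordinates of the files' assembly were not at hand.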

Additional observations from a re-analysis of the deposited data

How the results depend on the processing

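Region levels held within their 95% intervals under other clustering resolutions (0.5 and 1.5), log-normalization, clustering without the 4 genes, and removal of nuclei under 500 UMIs. The mean over nuclei of CPM, which weights shallow nuclei equally, moved endosperm levels to 25.5 for LEC1-A, 24.2 for LEC1-B and 126 for ABI3b, and seed coat levels to 8.90 for LEC1-A, 11 for LEC1-B and 14.4 for ABI3a. Without the highest doublet scores, ABI3b in endosperm moved to 124. Without nuclei holding an embryo marker UMI, an alternative chosen after seeing the data like that without sn17, seed coat levels moved to 4.87 for LEC1-A, 10.1 for ABI3a and 12.5 for ABI3b. Embryo shares fell to 2.48%, 5.73%, 5.63% and 11.1% (LEC1-A, LEC1-B, ABI3a, ABI3b) after thinning to 500 UMIs by its construction, the LEC1-B share was 32.9% with stored zeros included, and ABI3 in embryo nuclei with LEC1 was 29.6% after thinning. At a 4-fold limit, 10 of 22 regulators and 130 of 539 EMB1 genes were higher in embryo, against 3.78% of all genes. The order embryo, endosperm, seed coat held for the level of each gene under the other clusterings, without doublets, without nuclei under 500 UMIs and with the mean over nuclei, the alternatives that gave levels in all 3 regions. With stored zeros included, the share with LEC1-A was 14.8% of embryo and 15.3% of endosperm nuclei, too close to give an order. With Spearman correlation, 3 of the 5 nearest genes of LEC1-A and ABI3a were kept and 0 of those of LEC1-B and ABI3b, so single neighbours depend on that choice. No paired analysis was possible because the RNA came from 1 library and the other sample with the same replicate number is the ATAC assay. With 1 library, differences between seeds or preparations cannot be told apart from counting error, and seed coat clusters with under 20 UMIs of a gene do not allow an order.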
